A study of Mus musculus with 44 samples.

Results

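Plasma cells sorted as YFP+ from the bone marrow of middle-aged mice were compared with the YFP- plasma cells of the same marrow, 90 days after tamoxifen. The members are 8 of the 44 libraries of the series: the 4 mice aged 24 weeks at treatment and taken at day 90 (M2, M3, F12 and F15), each with 1 YFP+ and 1 YFP- marrow library. They were chosen from the sample labels, not from measured values, and the sorts were paired by mouse. All the mice of the series carry the genotype BEC-YFP and all had tamoxifen, so the controls share both; the labels do not spell out the alleles or the promoter that drives the reporter. Each library was made from CD138high B220- plasma cells purified by flow cytometry, with SMART-Seq v4 cDNA and Nextera XT. The YFP+ sort is labelled LLPC (the series title speaks of long-lived plasma cells) and the YFP- sort Bulk PC, with TOM in its titles. The 24-week spleen at day 90 (4 and 4 libraries of the same mice), young marrow at day 90 (mice of 6 to 8 weeks at treatment; 3 YFP+ and 4 YFP-) and 24-week marrow at day 5 (3 and 3) are used below where they bear on a marrow gene.

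Plasma cells are the end stage of B cell differentiation and secrete antibody. Most die soon after they form, but some live for long periods, above all in niches of the bone marrow that supply survival ligands such as APRIL and IL-6 and the chemokine CXCL12. On the way from B cell to plasma cell, cells leave the cell cycle, shut down the presentation of antigen on MHC class II and expand the endoplasmic reticulum, where antibody chains fold and assemble. With a reporter switched on by tamoxifen, marked cells found months later are cells marked at treatment or may descend from such cells. Unmarked cells of the same gate can include ones formed later and ones that escaped marking. The labels do not give the share of each, and that the YFP+ cells had themselves persisted since treatment was not tested.

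The 8 libraries held 7817463 to 10774639 counts each, over the genes left after the submitters had taken out immunoglobulin genes. Both sorts held the plasma cell genes at high level: Sdc1, which encodes the sorting antigen CD138, was at 761, 486, 494 and 588 counts per 1000000 (CPM, scaled by edgeR's TMM factors) in YFP+ M2, M3, F12 and F15 and at 238, 431, 773 and 535 CPM in the YFP- libraries. This order of the mice is used for every set of 4 values below. Tnfrsf17 (BCMA, the APRIL receptor), Xbp1 and Mzb1 were present in all 8. The YFP- library of M2 stood apart: it had the lowest Sdc1 of the 8, Jchain (the joining chain of polymeric antibody) took 46.2% of its counts against 25.3% to 40.7% in the other 7, and its TMM factor was 0.634 against 0.763 to 1.07. For many of the called genes below the result without mouse M2 is given too. Medians of gene lists, and genes that did not pass, are given with M2 only. In bulk RNA, fewer cells of a type and less RNA per cell cannot be told apart.

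Of 12457 genes tested, 22 were higher and 52 lower in YFP+ than in YFP- marrow plasma cells at an adjusted p under 0.05 (edgeR's quasi-likelihood test with mouse as a block, Benjamini-Hochberg adjustment), or 0.594% of all genes. The genes that were lower include the secreted cytokine-like protein Fam3c, the ectoenzyme Cd38 and the receptors Slamf6, Tigit and Fcmr. Also lower were 5 genes of the MHC class II group. Those that were higher include the chemokine receptor Ccr9, the vesicle GTPase Rab3b, the lysosomal protease Ctsl, Cd93 and the metal and oxidant defence genes Gstm1 and Mt2. The median log2 difference of all genes was 0.00, with 6227 positive and 6228 negative. Direction was the same in all 4 mice for 22 of the 22 higher and 48 of the 52 lower genes, and in 51 of the 74 the 4 YFP+ and 4 YFP- libraries did not overlap, as they did not in 3.35% of all genes tested. The fit draws its estimate of spread from 43 libraries: without the mouse block it called 1 gene higher and 14 lower, all among the 74, and with the 8 marrow libraries alone and the block 0 and 1. Without both libraries of M2 it called 2 and 20, and without the YFP- library of M2 alone 3 and 26.

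Fam3c was lower by about an order of magnitude in YFP+ cells. It encodes a small secreted protein of the FAM3 cytokine-like family. Its level was 4.53, 5.07, 5.59 and 7.1 CPM in YFP+ cells and 85.8, 77.2, 56.6 and 41.4 CPM in YFP- cells. Every YFP+ library was below every YFP- library, with a gap of several fold between the groups (log2 difference -3.47 ± 0.37, SE, adjusted p = 1.52e-06). Cd38, a surface ectoenzyme that consumes NAD, stood at 2.38, 4.39, 4.67 and 4.15 CPM against 33.8, 23.2, 20.1 and 18.2 CPM. It was lower in all 4 mice without overlap (log2 difference -2.62 ± 0.30, SE, adjusted p = 4.21e-06). Slamf6, a self-binding receptor of the SLAM family, was at 35.4, 41.7, 39.7 and 47.3 CPM in the YFP+ and 145, 163, 133 and 97.6 CPM in the YFP- libraries. The YFP+ values lay close together and below all YFP- values (log2 difference -1.69 ± 0.23, SE, adjusted p = 0.000129).

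Tigit, an inhibitory receptor best known from T and NK cells, was at 14.9, 17.8, 31.9 and 8.19 CPM in YFP+ and 41.4, 65.5, 74.4 and 22.8 CPM in YFP- cells. F12 was the highest and F15 the lowest mouse in both sorts, so the groups overlapped, yet the YFP+ value was the lower one in each of the 4 pairs (log2 difference -1.51 ± 0.22, SE, adjusted p = 0.000178). Cd55, which protects cells from complement, fell to 86, 89.6, 89.6 and 107 CPM from 251, 196, 167 and 149 CPM in the YFP- cells, with no overlap (log2 difference -1.03 ± 0.17, SE, adjusted p = 0.00133). Fcmr, the Fc receptor for IgM, was at 5.6, 3.7, 1.03 and 7.64 CPM in YFP+ and 25.6, 30.5, 22.2 and 94.9 CPM in YFP- libraries. F15 was the highest mouse in both sorts, and its YFP- library far above the other 3 (log2 difference -3.22 ± 0.44, SE, adjusted p = 0.000129). Evi2a, a small membrane protein encoded inside an intron of Nf1, was at 129, 164, 226 and 289.8 CPM in YFP+ and 789, 427, 359 and 476 CPM in YFP- cells, without overlap (log2 difference -1.32 ± 0.21, SE, adjusted p = 0.000801); its exons overlap those of Evi2 on the same strand, so their counts may have been split.

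Nebl and Dpp4 were nearly lost from the YFP+ cells. Nebl, an actin-binding protein of the nebulin family, was at 0.119, 0, 0.342 and 0.546 CPM in YFP+ and 8.93, 7.43, 2.41 and 3.89 CPM in YFP- cells (log2 difference -4.18 ± 0.58, SE, adjusted p = 0.000129). For Dpp4 (CD26, a surface dipeptidase), the YFP+ values were 0.119, 0.137, 0 and 1.42 CPM and the YFP- values 4.98, 2.77, 5.93 and 10.4 CPM (log2 difference -4.01 ± 0.58, SE, adjusted p = 0.000205). F15 was the highest mouse for both sorts of Dpp4, and in both genes the groups did not overlap. Exons of Dpp4, and of Cd55 above, overlap those of a gene model on the opposite strand. Myc, the growth and cell cycle transcription factor that is repressed in plasma cell differentiation, was lower in each pair, at 9.17, 7.68, 3.08 and 16.6 against 20.5, 18.9, 16.6 and 32.8 CPM (log2 difference -1.39 ± 0.23, SE, adjusted p = 0.00141). The groups overlapped through the YFP+ library of F15. All the genes of the last 3 paragraphs kept their call in each of the 8 fits that left out 1 of the compared libraries and each of the 4 that left out both marrow libraries of 1 mouse. Without the mouse block Tigit, Fcmr and Myc did not pass (adjusted p = 0.391, 0.328 and 0.177), and with the marrow libraries of the series alone Cd55, Evi2a and Myc did not (0.0578, 0.0773 and 0.059).

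**Figure D1:**
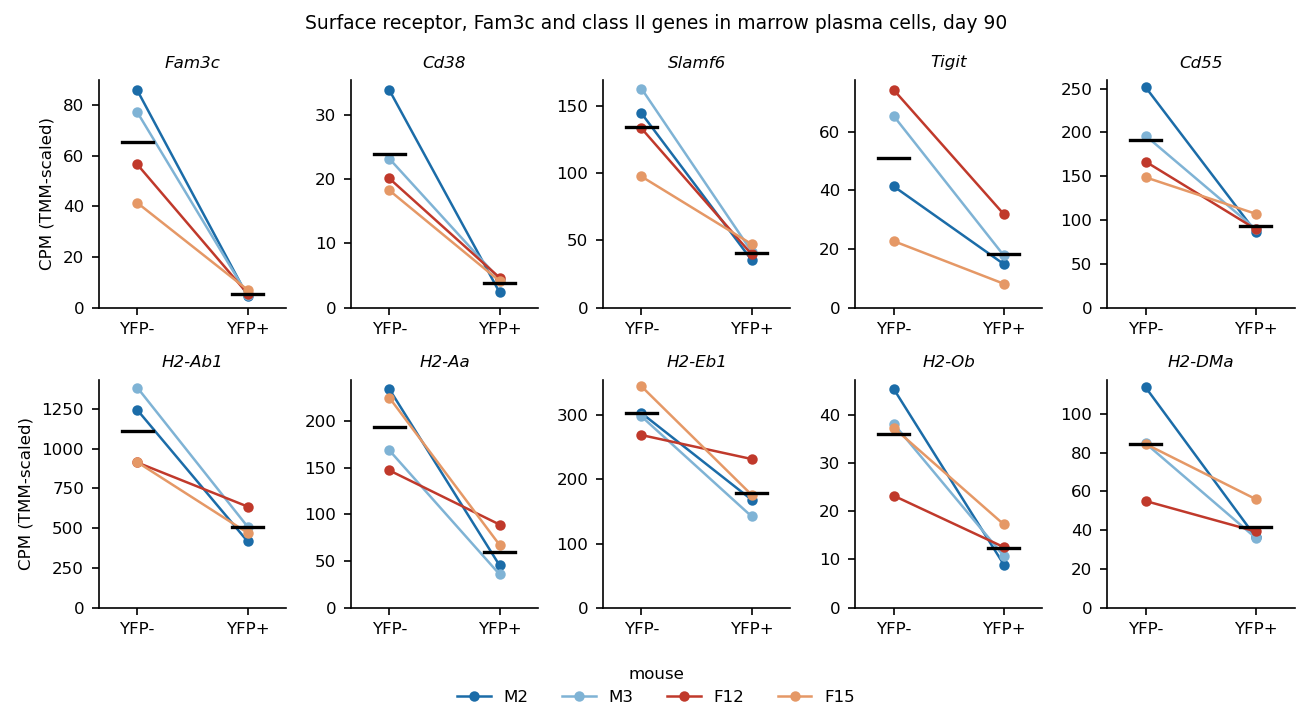
Level in CPM (y axis, linear from 0) in the YFP- and YFP+ marrow libraries of each mouse (coloured points joined by mouse; black bar, mean of 4) for 10 genes that were lower in YFP+ cells. All 4 lines fall in each panel; for Fam3c the 4 YFP+ libraries lie between 4.53 and 7.1 CPM and the YFP- libraries between 41.4 and 85.8 CPM, and Tigit shows how the mice differ in level while each falls.

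The MHC class II group held 5 of the lower genes. Class II molecules present peptides from internalised protein to helper T cells; H2-Aa with H2-Ab1 and H2-Eb1 encode chains of the surface molecules, H2-DMa a chain of the DM molecule that loads the peptide, and H2-Ob with H2-Oa the DO molecule that inhibits DM. Of 16 genes listed for class II and its loading, 15 passed the low-count filter (Ciita, the class II transactivator, did not), and 5 were lower and 0 higher, against 0.417% of all genes lower. The median log2 difference of the 15 was -0.54, with 12 negative. This list and those below were chosen with earlier results of these data known, so counts over a list are not independent of the data. H2-Ab1 was at 417, 510.2, 636 and 471 CPM in YFP+ and 1244, 1385, 913 and 915 CPM in YFP- cells (log2 difference -1.11 ± 0.17, SE, adjusted p = 0.0006). H2-Aa was at 45.3, 35.7, 89.1 and 67.2 CPM and 235, 169, 147 and 225 CPM (log2 difference -1.73 ± 0.31, SE, adjusted p = 0.00352). In both genes the groups did not overlap, and F12, the mouse with the lowest YFP- level, changed least.

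The class II genes lie together in the major histocompatibility complex on chromosome 17, and their promoters are known for a shared module that ends in a Y box, the inverted CCAAT motif bound by NF-Y. The 100 bases before the annotated start are printed for 3 genes that were lower (H2-Aa, H2-Eb1 and H2-Ob) and 2 class II genes that did not pass the test (H2-Oa and H2-DMb1), so that the shared element can be seen in both. Sequences are RefSeq's on GRCm38.p6, 5′ to 3′ on the gene's own strand, with each match to GATTGG, on either strand, in capitals.
H2-Aa, chr17:34287824-34287923, minus strand: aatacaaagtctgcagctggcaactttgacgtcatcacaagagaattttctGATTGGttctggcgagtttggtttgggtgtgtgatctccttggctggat
H2-Eb1, chr17:34305767-34305866, plus strand: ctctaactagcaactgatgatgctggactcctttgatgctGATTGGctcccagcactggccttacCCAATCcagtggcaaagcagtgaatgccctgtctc
H2-Ob, chr17:34238805-34238904, plus strand: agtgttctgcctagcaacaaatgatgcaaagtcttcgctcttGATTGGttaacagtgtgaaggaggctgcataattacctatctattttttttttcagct
H2-Oa, chr17:34092279-34092378, plus strand: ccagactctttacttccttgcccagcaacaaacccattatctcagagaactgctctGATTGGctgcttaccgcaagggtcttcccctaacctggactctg
H2-DMb1, chr17:34153091-34153190, plus strand: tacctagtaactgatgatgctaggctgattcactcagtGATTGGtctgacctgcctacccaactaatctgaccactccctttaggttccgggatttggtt
The match begins 49 bases before the start in H2-Aa, 58 in H2-Ob, 44 in H2-Oa and 62 in H2-DMb1; H2-Eb1 has 1 on each strand, at 60 and 35. Of the 12 list members with a promoter window that was searched, 10 held the 6 letters in a window of 250 bases before a start. Of the 32851 windows of that length in the RefSeq table, 14.6% did. In the last 100 bases before the start 7 of the 12 members held the 6 letters, and 8.62% of all windows did. The 12 include Rfx5, Rfxank, Ctss and Ifi30, which lie on other chromosomes. Rfx5 and Rfxank are among the 10, and Rfx5 is among the 7. H2-Ab1 had no window to search. A member with several windows counted as a match if any of them held the letters, while the shares of all windows are per window. Any window of Cd74 was left out of the search of members, but not of the windows of the whole table. H2-DMa, which was lower too, has 2 windows in the table and no match in the last 100 bases of either; it is not printed. A match is a description of the letters, not a site shown to be bound, and it is present in genes that passed the test and in genes that did not.

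The other class II members differed in size and certainty. H2-Ob was at 8.93, 10.7, 12.5 and 17.2 CPM in YFP+ and 45.4, 38.1, 23.2 and 37.3 CPM in YFP- cells, without overlap (log2 difference -1.50 ± 0.23, SE, adjusted p = 0.000441). H2-DMa was lower in each pair, at 36.3, 35.9, 39.3 and 56 against 114, 84.9, 55.1 and 84.6 CPM, with the YFP+ library of F15 just above the YFP- library of F12 (log2 difference -0.97 ± 0.16, SE, adjusted p = 0.00116). H2-Eb1 changed less, from 304, 298, 269 and 345 CPM in YFP- to 168, 142, 232 and 176 CPM in YFP+ cells, without overlap (log2 difference -0.77 ± 0.16, SE, adjusted p = 0.0148). Cd74, the invariant chain, did not pass, at 10205, 17731, 12669.7 and 19976 against 24418, 23536, 10341 and 22235 CPM (log2 difference -0.39 ± 0.16, SE, adjusted p = 0.348), nor did the DM chain gene H2-DMb1 (log2 difference -0.54 ± 0.21, SE, adjusted p = 0.302), although its libraries did not overlap. H2-Oa had 0 counts in the YFP+ and 21 in the YFP- libraries, at least 6.83-fold lower by a floor of 3 counts over the group, and did not pass (adjusted p = 0.357). H2-Aa was called in 8 of 8 fits without 1 library and 2 of 4 without 1 mouse (adjusted p up to 0.109, without M2), and H2-Eb1 in 2 of 8 and 1 of 4 (up to 0.164, without M3), while H2-Ab1, H2-Ob and H2-DMa kept theirs in all 12 fits with a library or a mouse left out. Without the mouse block H2-Ob, H2-DMa (adjusted p = 0.059 for both) and H2-Aa (0.0515) did not pass, and with marrow libraries alone H2-DMa (0.0773) and H2-Eb1 (0.0829) did not. H2-DMa overlaps exons of Brd2 on the opposite strand, and the library kit does not mark strand. Of the 17 MHC class I genes tested, 0 passed in edgeR, DESeq2 or limma voom and 1 had an unadjusted p under 0.05 (11 positive, median log2 difference 0.09), and H2-K1 had a log2 difference of 0.00 ± 0.14 (SE).

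Of 26 genes tested from a list of inhibitory and costimulatory receptors, 5 were lower and 0 higher, against 0.417% of all genes lower and 0.177% higher. In the list 19 were negative, with a median of -0.25. The 5 were Tigit, the ligands Tnfsf9 and Cd70, and Cd38 and Cd55, so Tigit alone of the 5 is an inhibitory receptor. This list too was chosen with earlier results of these data known, so its count describes the list and does not test a class of receptors. Tnfsf9 (4-1BB ligand) was at 1.19, 1.65, 1.14 and 0.873 CPM in YFP+ and 16.3, 6.55, 6.13 and 1.84 CPM in YFP- cells, highest in the YFP- library of M2 and without overlap (log2 difference -2.37 ± 0.48, SE, adjusted p = 0.0128). Cd70, the ligand of CD27, had 0 counts in all YFP+ libraries and 58 over the YFP- libraries, or at least 18.9-fold less. Tnfsf9 was called in 4 of 8 fits without 1 library and 1 of 4 without 1 mouse (adjusted p up to 0.271), and Cd70 in 2 of 8 and 0 of 4 (up to 0.334). Of 10 SLAM family genes tested, edgeR and voom passed Slamf6 alone and DESeq2 2, and 5 had an unadjusted p under 0.05. Slamf7, a plasma cell marker and antibody target in myeloma, was at 766, 1083, 940.4 and 1028 against 930.0, 1075, 846 and 976 CPM (log2 difference -0.01 ± 0.10, SE, adjusted p = 0.987). Cd48, a SLAM family ligand, was lower in each pair but did not pass (log2 difference -0.75 ± 0.21, SE, adjusted p = 0.12).

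Among TNF pathway and death receptor genes, 1 was lower in each list, against 0.417% of all genes lower. A single call describes that gene and not its pathway. Ltb, which encodes lymphotoxin beta, was at 1.43, 1.1, 0.114 and 1.64 CPM in YFP+ and 6.59, 9.06, 5.53 and 14 CPM in YFP- cells, without overlap (log2 difference -3.11 ± 0.53, SE, adjusted p = 0.00156), and was the only one of 23 NF-kB and TNF pathway genes to pass. Fas, the death receptor, was at 31.1, 36.8, 43.2 and 29 CPM against 104, 69, 61.6 and 53 CPM, again without overlap (log2 difference -1.04 ± 0.18, SE, adjusted p = 0.00199), the only one of 20 BCL2 family and death receptor genes. Its adjusted p was 0.0592 without mouse M2. Cd83, an activation marker of B and dendritic cells chosen for mention after its values were seen, was at 3.45, 7.13, 0 and 9.17 CPM in YFP+ and 18.7, 13.7, 19.3 and 27.6 CPM in YFP- cells, without overlap (log2 difference -2.35 ± 0.45, SE, adjusted p = 0.00753), with adjusted p = 0.0721 without M2. Ltb and Cd83 did not pass with limma voom (adjusted p = 0.0708 and 0.0668), nor Ltb, Cd83 and Fas without the mouse block (0.376, 0.478 and 0.059). The survival regulators did not pass: Mcl1, which plasma cells need to live, was at 224, 157, 182 and 177 against 147, 159, 194 and 164 CPM (log2 difference 0.14 ± 0.14 (SE)), and Bcl2 had a log2 difference of 0.43 ± 0.20 (SE).

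Among receptors that place plasma cells in tissue, 1 gene was called higher and 1 lower. Ccr9, the receptor for the gut and thymus chemokine CCL25, was higher in YFP+ cells, at 19.5, 13, 18 and 15 CPM against 4.69, 2.39, 8.74 and 4.92 CPM. It rose in each of the 4 mice without overlap (log2 difference 1.76 ± 0.32, SE, adjusted p = 0.00441). S1pr1, the sphingosine-1-phosphate receptor that draws lymphocytes out of tissue into blood, had 1 count over the YFP+ libraries and 156 over the YFP- libraries, where it stood at 3.81, 1.51, 10.4 and 1.54 CPM (adjusted p = 0.00728). Its ratio of levels, 152-fold, has an exact counting interval of 26.9 to 6046 fold, which covers counting error only. Cxcr3 was lower in each pair without overlap, at 12.9, 19.2, 22.3 and 16 against 92.7, 68.7, 42.4 and 31.9 CPM, but its adjusted p of 0.0505 was above the threshold. Cxcr4, the CXCL12 receptor that holds plasma cells in marrow, was at 16.7, 17.3, 6.27 and 21.4 and 13.2, 14, 7.54 and 32.4 CPM (log2 difference -0.06 ± 0.26, SE, adjusted p = 0.961). Of the 19 genes of this list tested, edgeR called 1 higher and 1 lower and DESeq2 3 in all, with 13 negative and a median of -0.37. Of all genes tested, edgeR called 0.177% higher and 0.417% lower. S1pr1 was called in 6 of 8 fits without 1 library and 2 of 4 without 1 mouse. Without mouse M2 its adjusted p was 0.0862, and that of Ccr9 was 0.0742, and 0.0767 without M3. Ccr9 had an adjusted p of 0.0503 with limma voom and 0.283 without the mouse block. Exons of Ccr9 overlap those of Slc6a20a on the opposite strand. Ccr9 is also on the marker list of plasmacytoid dendritic cells, where 6 of 8 genes tested were positive and Ccr9 alone passed. The 10 genes of that list summed to 349 to 655 CPM in YFP+ and 321 to 488 CPM in YFP- libraries. The part of such cells in the Ccr9 difference was not tested.

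Of 18 plasma cell identity genes tested, Cd93 alone passed in edgeR, where 5 had an unadjusted p under 0.05, and DESeq2 called 2 and limma voom 1. Fkbp11, a folding enzyme of the secretory pathway, had a log2 difference of -0.77 ± 0.23 (SE) (edgeR adjusted p = 0.143); in DESeq2 its adjusted p, 0.05 when rounded, was just under the threshold. Of 18 survival receptor and signal genes, edgeR passed Cd93 (higher) and Cd38 (lower). Among all genes tested, 0.594% passed in edgeR. Cd93, a C-type lectin-like membrane protein known to be needed for the upkeep of marrow plasma cells, was at 77.4, 78.7, 72.5 and 86.9 CPM in YFP+ and 23.4, 53.4, 51.4 and 42.2 CPM in YFP- cells. The YFP- library of M2 was the lowest, and the groups did not overlap (log2 difference 0.95 ± 0.19, SE, adjusted p = 0.0105); it was called in 6 of 8 fits without 1 library and 2 of 4 without 1 mouse (without M2, log2 difference 0.70 and adjusted p 0.231). Prdm1 (Blimp-1, the master regulator of plasma cells) was at 96.9, 61.6, 96.1 and 136 and 95.6, 92.4, 140.3 and 129 CPM (log2 difference -0.26 ± 0.13, SE, adjusted p = 0.454). Irf4 was at 133, 155, 219.5 and 312 and 113, 132, 187 and 254 CPM (log2 difference 0.25 ± 0.15, SE, adjusted p = 0.517). For Tnfrsf17 the 95% interval of the log2 difference ran from -0.56 to 0.12, and for Xbp1 from -0.58 to 0.01, so a change of 2-fold lies outside both.

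Cell surface genes aside, the genes higher in YFP+ cells had varied roles. Rab3b, a GTPase of regulated vesicle release, was at 44.1, 56.9, 55.5 and 48.1 CPM in YFP+ and 25, 29.7, 21.3 and 31.9 CPM in YFP- cells, without overlap (log2 difference 0.94 ± 0.15, SE, adjusted p = 0.000797), and it was the 1 higher gene that kept its call in all 12 fits with a library or mouse left out; its adjusted p was 0.0554 without the mouse block and 0.059 with marrow libraries alone. Ctsl, a lysosomal cysteine protease, was at 120.2, 135, 117 and 116 against 43.9, 82.1, 62 and 84.9 CPM (log2 difference 0.86 ± 0.16, SE, adjusted p = 0.00442). It was the only one of 26 autophagy and lysosome genes to pass, against 0.594% of all genes. Cyp4f18, a fatty acid hydroxylase that inactivates leukotriene B4, was at 723, 808, 633 and 536 CPM against 305, 407, 257 and 285 CPM (log2 difference 1.11 ± 0.24, SE, adjusted p = 0.0238). Spag6, known as a protein of the sperm flagellum, was at 63.6, 41.8, 43.3 and 74.8 CPM against 14.4, 21.9, 15.9 and 27.9 CPM (log2 difference 1.45 ± 0.29, SE, adjusted p = 0.0117); a close copy of this gene exists in mice, so its counts are uncertain. In these 4 genes every YFP+ library was above every YFP- library. Exons of all 4 overlap those of another gene or gene model on the opposite strand, and those of Ctsl also overlap Gm49230 on the same strand. Ctsl was called in 7 of 8 fits without 1 library and 3 of 4 without 1 mouse, Spag6 in 5 and 2, and Cyp4f18 in 3 and 0; without M2 their adjusted p was 0.0862, 0.176 and 0.183.

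Of 31 genes of glutathione, oxidant and metal defence, edgeR called 2 higher and 0 lower (16 positive, median 0.04), against 0.177% of all genes higher; 7 had an unadjusted p under 0.05, and DESeq2 called 6 and voom 1. Gstm1, a glutathione transferase, was at 51.7, 54.2, 50.5 and 35.5 CPM in YFP+ and 29.7, 22.2, 19.4 and 16.4 CPM in YFP- cells (log2 difference 1.14 ± 0.25, SE, adjusted p = 0.0231). The metallothionein gene Mt2 was at 116, 70.1, 127 and 49 CPM against 33.2, 27.9, 25.8 and 45.1 CPM (log2 difference 1.49 ± 0.36, SE, adjusted p = 0.0467). Neither overlapped between the groups, but Mt2 was nearly the same in the pair of F15. Mt1, its neighbour, was higher in each pair without passing (log2 difference 1.18 ± 0.33, SE, adjusted p = 0.108). Gstm1 and the metallothioneins belong to families of near copies, and Mt2 overlaps Gm45774 on the opposite strand. Gstm1 was called in 2 of 8 fits without 1 library and 0 of 4 without 1 mouse, and Mt2 in 1 of 8 and 1 of 4. With limma voom Mt2 did not pass (0.0569), and without the mouse block neither did (0.119 for Gstm1 and 0.223 for Mt2).

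The rest of the higher genes named by size and level were called less firmly. Fchsd2, an endocytosis protein, had a log2 difference of 1.13 ± 0.22 (SE), Rapgef3 (the cAMP sensor Epac1) of 1.36 ± 0.30 (SE) and Lgals3bp, a secreted galectin-3 ligand, of 1.16 ± 0.26 (SE). The values were 1.30 ± 0.30 (SE) for Tesc, a calcium-binding regulator of sodium-proton exchange, 1.51 ± 0.35 (SE) for the DNA helicase Recql5 and 1.10 ± 0.27 (SE) for Adssl1, an enzyme of AMP synthesis. For Zfp740, a zinc finger gene, the difference was 1.15 ± 0.27 (SE), and for Cxxc5, a CXXC zinc finger protein, 1.08 ± 0.26 (SE). Their adjusted p ran from 0.0101 (Fchsd2) to 0.0484 (Adssl1), all 8 were higher in each of the 4 mice, and all lost the call without mouse M2, with adjusted p from 0.237 for Fchsd2 to 0.515 for Adssl1. Fchsd2 was called in 6 of 8 fits without 1 library and 3 of 4 without 1 mouse, and the other 7 in 0 to 4 and 0 to 2; Tesc was called in none of the 12. Limma voom kept Fchsd2 and Tesc and gave the other 6 an adjusted p from 0.0689 to 0.154. In Lgals3bp the YFP- libraries of M2 (24.9 CPM) and M3 (48 CPM) were far below those of F12 (116.7 CPM) and F15 (109.7 CPM), and the YFP+ libraries lay between 110.5 and 191.7 CPM. Exons of Fchsd2, Rapgef3, Recql5, Zfp740 and Cxxc5 overlap those of other genes on the opposite strand.

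**Figure D2:**
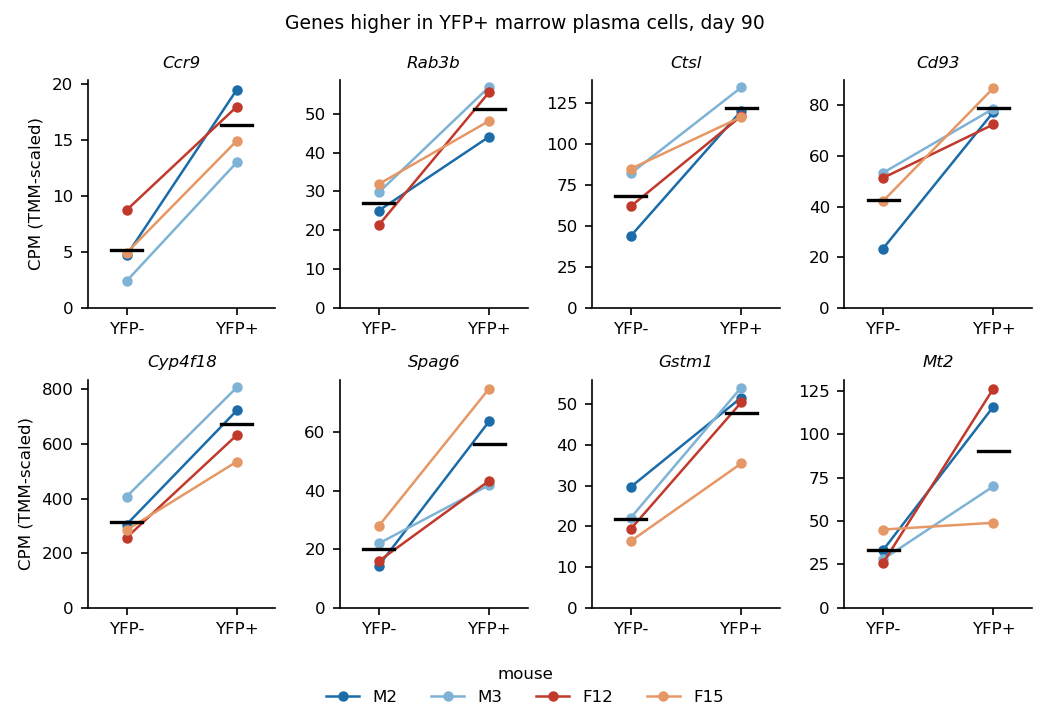
Level in CPM (y axis, linear from 0) in the YFP- and YFP+ marrow libraries of each mouse (coloured points joined by mouse; black bar, mean of 4) for 8 genes that were higher in YFP+ cells. The groups do not overlap in any of the 8; the line of F15 is nearly flat for Mt2 (45.1 to 49 CPM), and M2 has the steepest line for Ctsl and Cd93.

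Most genes of the secretory apparatus had a negative difference. Of 30 ER chaperone and folding genes, edgeR called 1 lower (Erp44, which retains unassembled antibody in the early secretory pathway) and 0 higher, while 23 were negative, with a median of -0.23; 12 had an unadjusted p under 0.05, and DESeq2 called 4 and voom 1. Erp44 was at 481, 646, 412 and 619.8 CPM in YFP+ and 1116, 849, 533 and 807 CPM in YFP- cells, lower in each pair but overlapping (log2 difference -0.60 ± 0.13, SE, adjusted p = 0.0213). Of 35 translocon, degradation and vesicle genes, 12 had an unadjusted p under 0.05, and edgeR, DESeq2 and voom each called 2. In edgeR Ssr3, a subunit of the translocon-associated complex, was lower (log2 difference -0.52 ± 0.12, SE, adjusted p = 0.0406) and Rab3b higher, with a median of -0.14. Among all genes tested, edgeR called 0.417% lower and 0.177% higher. For several of these genes the YFP- library of M2 was far above the rest: Manf, an ER stress protein, was at 3904, 1944, 1029 and 1750.5 CPM in the YFP- and 1021, 1487, 1358 and 1103 CPM in the YFP+ libraries and did not pass (log2 difference -0.65 ± 0.22, SE, adjusted p = 0.211). Derl2, of ER-associated degradation, was at 607, 282, 141 and 189.8 CPM in the YFP- and 146, 216, 177 and 175 CPM in the YFP+ libraries (log2 difference -0.60 ± 0.23, SE, adjusted p = 0.297). Erp44 was called in 5 of 8 fits without 1 library and 2 of 4 without 1 mouse (adjusted p up to 0.33, without M2), and Ssr3 in 0 of 8 and 0 of 4. The part of the YFP- library of M2 in these medians was not tested.

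Cell cycle genes had the lowest median of the 23 lists of functions, -0.64, with 33 of 38 genes negative and 0 past the threshold in edgeR, DESeq2 or limma voom; 10 had an unadjusted p under 0.05 in edgeR. Cdk1, the mitotic kinase, was at 8.57, 1.51, 0.57 and 11.6 CPM in YFP+ and 36.5, 4.15, 4.82 and 17.1 CPM in YFP- cells (log2 difference -1.60 ± 0.63, SE, adjusted p = 0.309). Rrm2, which makes DNA precursors, was at 23.6, 15.8, 7.18 and 43.2 and 71.8, 19.8, 22.1 and 53.2 CPM (log2 difference -0.95 ± 0.34, SE, adjusted p = 0.254). M2 and F15 were the higher mice for both genes in both sorts, and the YFP+ value was the lower one in each pair. Mki67, the proliferation marker, went both ways, at 11.3, 22.4, 24.3 and 41.7 and 35.7, 20.4, 22.1 and 38.5 CPM (log2 difference -0.23 ± 0.34, SE, adjusted p = 0.828). With edgeR 0 genes passed among 22 of the stress response and amino acid supply (median 0.12; 5 with an unadjusted p under 0.05), 19 of glycolysis (0.12; 2) and 22 of cholesterol synthesis (-0.18; 4), and 0 with DESeq2 or voom. For 33 interferon response genes (median 0.15) edgeR passed 0, with 7 at an unadjusted p under 0.05, and DESeq2 3. For 28 integrin and adhesion genes (-0.12) the numbers were 0, 7 and 2, and for 25 B cell genes (-0.09) 0, 1 and 1; voom passed 0 in each. The 22 immediate early genes, which also respond to handling of cells, had a median of 0.29 with 16 positive and 0 past the threshold in edgeR or voom, 6 at an unadjusted p under 0.05 and 3 past it in DESeq2. Junb was lowest in the YFP- library of M2, at 22.8, 122, 192 and 163 CPM in the YFP- and 286, 133, 177 and 195 CPM in the YFP+ libraries.

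**Figure D3:**
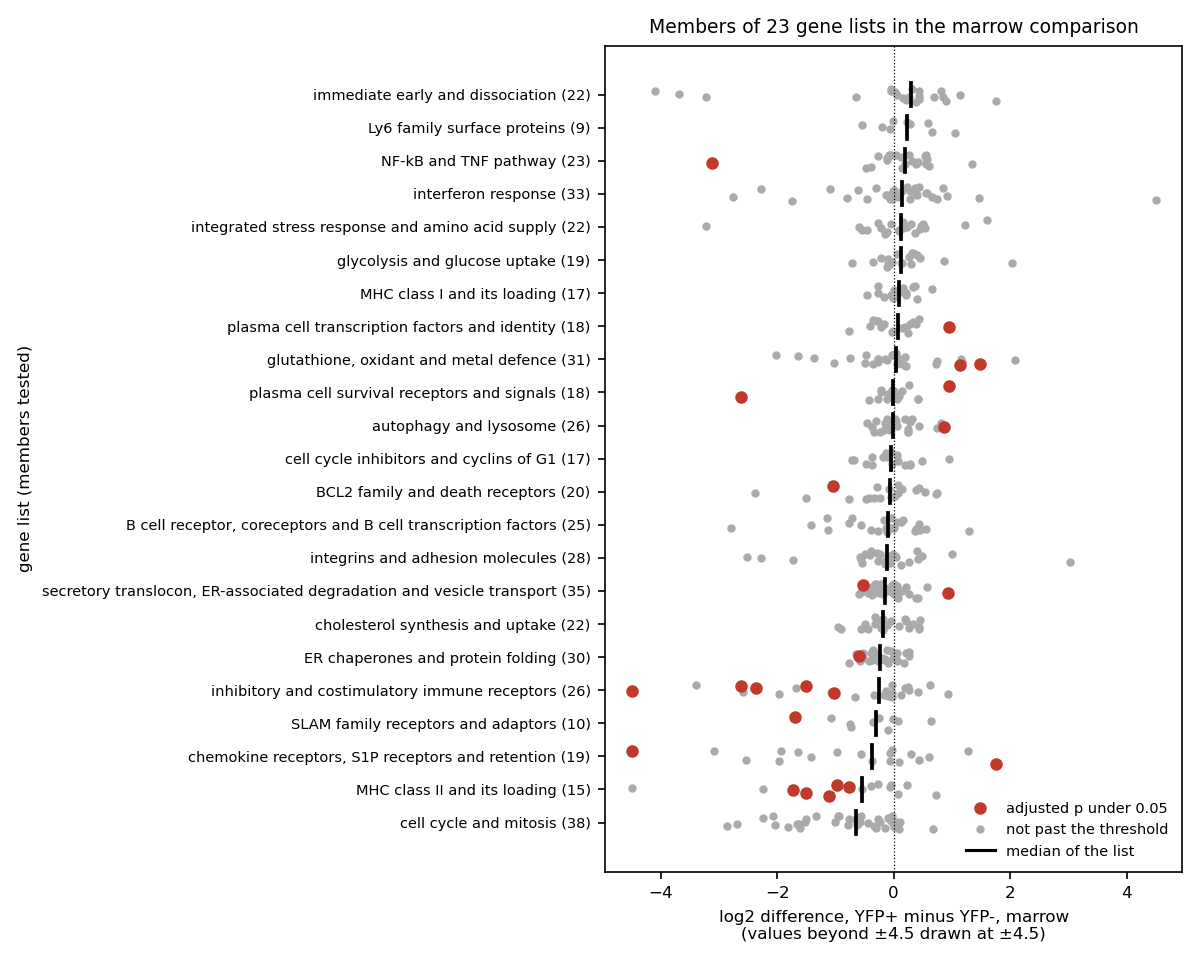
Log2 difference of YFP+ against YFP- marrow cells (x axis) for each tested member of 23 gene lists (rows, number tested in brackets); red points passed the threshold, grey points did not, and black bars are list medians. The class II row has 5 red points, all left of 0, while the cell cycle row has the lowest median, -0.64, and no red point.

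Transcripts of basophils account for the 2 largest fitted differences among the genes named. Prss34 and Mcpt8 encode granule proteases of basophils. Prss34 was at 0, 240.0, 0.301 and 150.2 CPM in the YFP- and 0, 0, 0 and 0.109 CPM in the YFP+ libraries. Mcpt8 was at 0, 88.1, 0 and 47.7 CPM in the YFP- libraries and 0 in every YFP+ library. Fcer1a, the IgE receptor chain, was at 0, 10.7, 0 and 8.3 CPM in the YFP- libraries and 0 in the YFP+ ones. The YFP- libraries of M3 and F15 alone hold these 3 genes above 1 CPM, and those of M2 and F12 are at or near 0. Over the groups, Prss34 had 1 count against 3374, and Mcpt8 0 against 1165, at least 379-fold less in the YFP+ cells (adjusted p = 2.12e-09 for Prss34, 0.000205 for Mcpt8 and 0.0393 for Fcer1a). Neither protease passed without the mouse block (adjusted p = 0.16 and 0.394) or in DESeq2's Wald test (0.237 and 0.538), and Fcer1a had 0.697 in the latter and was called in 1 of 4 fits without 1 mouse. The same pattern was present at day 5, where 1 of 3 YFP- marrow libraries had Prss34 at 2236 CPM and Mcpt8 at 562 CPM and the 3 YFP+ libraries were at or below 0.42 CPM. With the marrow libraries of M3 and F15 left out, 6 genes were higher and 33 lower, 21 of them among the 74. Of the basophil genes of the marker list, Cpa3 was also confined among the 8 libraries to YFP- M3 (24.6 CPM) and F15 (8.92 CPM), and Ms4a2 was at most 2.64 CPM. The 11 eosinophil, basophil and mast cell genes of that list summed to more in YFP+ than in YFP- cells of each mouse, 2381, 2909.5, 2140.2 and 2199.5 against 2014, 2362, 618 and 1967 CPM. In a library 7 to 9 of the 11 were at 0 in YFP+ and 4 to 8 in YFP- cells. Prg2, an eosinophil granule protein, made up most of each sum, at 2379, 2901, 2138 and 2194 against 2007, 2230.1, 617 and 1892 CPM (log2 difference 0.61 ± 0.22, SE, adjusted p = 0.272).

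Other blood cell markers were summed by list in each library. The 16 neutrophil and precursor genes summed to 264 to 2668 CPM in YFP+ and 167 to 769 CPM in YFP- libraries, with YFP+ M2 the highest, and 1 to 4 of them were at 0 in a library. The 14 monocyte and macrophage genes, led by Lyz2, summed to 1860, 609, 749 and 493 CPM in YFP+ and 1158, 557, 329 and 213 CPM in YFP- libraries, higher in YFP+ in each of the 4 mice. The 11 erythroid genes summed to 13.2 to 3118 CPM and 4.92 to 1225 CPM, high in both sorts of M2, in YFP+ F15 and in YFP- M3. T cell genes summed to no more than 15.4 CPM in any library. The 11 NK cell genes summed to 23.2, 15.1, 49.4 and 10.5 CPM in YFP+ and 63.1, 39.7, 77.6 and 21.5 CPM in YFP- libraries, lower in YFP+ in each mouse. In a library 7 to 9 of them were at 0 in YFP+ and 5 to 8 in YFP- cells. Of the NK genes Gzma, a granule protease, passed the test as lower, at 5, 3.84, 26.1 and 3.71 CPM against 53.6, 21.2, 38.8 and 13 CPM (log2 difference -1.96 ± 0.39, SE, adjusted p = 0.0101). Its adjusted p was 0.24 without mouse M2 and 0.109 without M3. Gzma was the highest of the NK genes in each YFP- library. With Gzma set aside, the rest of the list summed to more in YFP+ than in YFP- cells of M2, and to less in the other mice. Prss57, a neutrophil serine protease on the neutrophil list, was lower as well, at 11.4, 8.5, 8.78 and 3.49 CPM against 39.4, 35.1, 40.2 and 11 CPM (log2 difference -1.92 ± 0.34, SE, adjusted p = 0.00235), although that list's sum was not lower in YFP+ cells (higher in 3 of the 4 mice). Exons of Prss57 overlap those of Fstl3 on the opposite strand. The part of other cells in the 74 calls was not tested.

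The 4 mice did not contribute alike. Over the 58 called genes with at least 1 CPM in all 8 libraries, the median size of the log2 ratio within a mouse was 1.70 in M2, 1.24 in M3, 0.90 in F12 and 0.84 in F15. M2 had the largest ratio in 35 of the 58 and F15 in 0, and F12 the smallest in 26. M2 and M3 share a date in the titles and F12 and F15 another, so the prefix of the name and the date, whose meaning is not given, cannot be told apart. Within the first pair of mice alone 167 genes were higher and 215 lower, and within the second 0 and 5; all 5 of these and 50 of those in the first pair were among the 74. Tested directly, the YFP difference of M2 and M3 differed from that of F12 and F15 in 1 gene of 12457, Paxip1, a DNA damage response protein, which was at 0.879, 0.504, 14 and 13.7 CPM in YFP- and 13.6, 6.31, 10.4 and 10 CPM in YFP+ cells. It was low only in the YFP- libraries of M2 and M3 (difference of differences 4.23 on the log2 scale, adjusted p = 0.0173), and 1729 genes had an unadjusted p under 0.05 in that test.

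**Figure D4:**
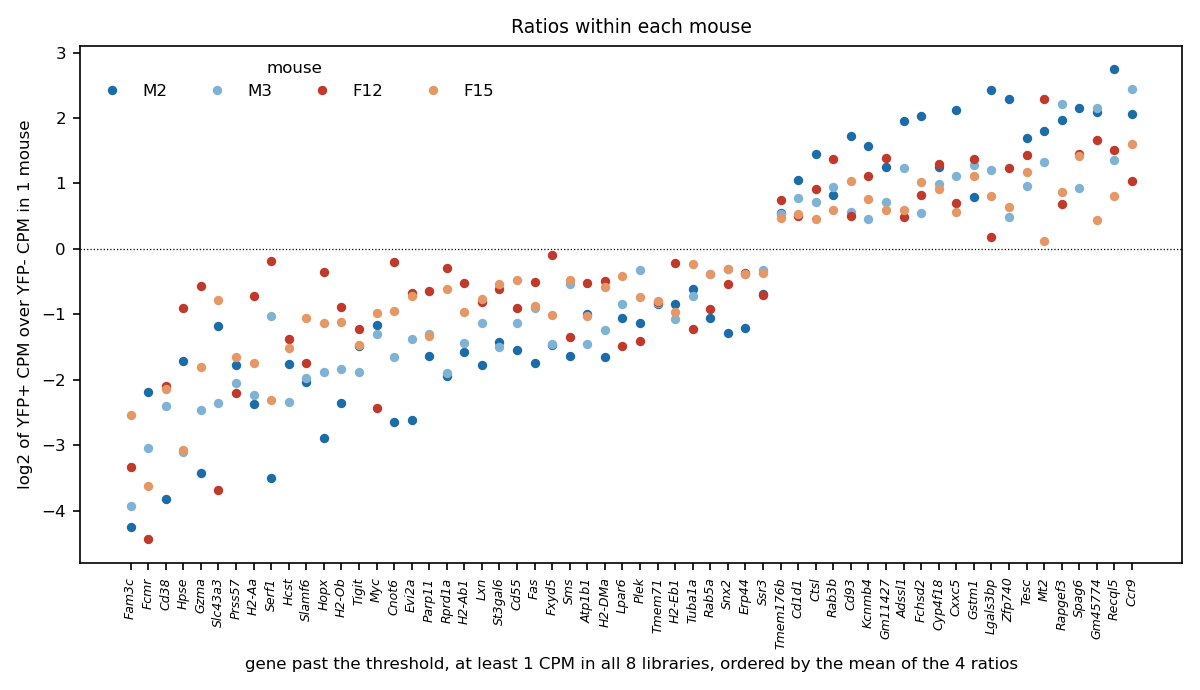
Log2 ratio of YFP+ to YFP- CPM within each mouse (y axis) for the 58 called genes with at least 1 CPM in all 8 marrow libraries (x axis, ordered by the mean of the 4 ratios). The ratios of M2 are the farthest from 0 in 35 genes, while those of F15 never are.

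The same contrast in other samples showed which marrow differences recurred. In the spleen of the same 4 mice 2.18% of genes passed (103 higher, 169 lower), in young marrow 0.289% and in day-5 marrow 0.0161%. These comparisons use other libraries than the 8 and share no control with them, but all come from 1 fit, and the spleen libraries come from the same animals. Of the 22 genes higher in 24-week marrow, 20 had the same sign in spleen and 12 also passed there; of the 52 lower genes, 49 had the same sign and 31 passed. In young marrow, where only mice F2 and F9 have both sorts, 17 of the 22 had the same sign with 1 past the threshold, and 44 of the 52 with 8. At day 5, 14 of the 22 had the same sign with 0 past the threshold and 30 of the 52 with 2, the basophil genes Prss34 and Mcpt8, which were the 2 genes called there.

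The same genes were compared between the times, day 5 and day 90. At day 5 both sorts held Slamf6 at similar level, 115 to 121 CPM in YFP+ and 110.2 to 147 CPM in YFP- marrow, against 35.4 to 47.3 and 97.6 to 163 CPM at day 90. H2-Ab1 was at 837 to 1274 CPM in YFP+ and 891 to 1128 CPM in YFP- cells at day 5, and at 417 to 636 and 913 to 1385 CPM at day 90. In both genes the ranges of the YFP+ libraries did not overlap between the times and those of the YFP- libraries did; that comparison between mice was not tested. The test of the difference between times passed for 6 genes. Fam3c had a log2 difference of 0.73 ± 0.37 (SE) at day 5 and -3.47 ± 0.37 at day 90 (difference -4.20, adjusted p = 9.36e-05). Cd38 went from 0.27 ± 0.30 to -2.62 ± 0.30 (difference -2.89, adjusted p = 0.00109), Nebl from -0.23 ± 0.51 to -4.18 ± 0.58 (adjusted p = 0.041) and Tigit from 0.31 ± 0.24 to -1.51 ± 0.22 (adjusted p = 0.0134). Wnt10a, a secreted Wnt ligand, and the unnamed gene model Gm43292, which overlaps Eif2ak3 on the opposite strand, differed in the other direction. For Slamf6 and H2-Ab1 this test did not pass (adjusted p = 0.0728 and 0.0782). Day 5 and day 90 are different mice.

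Spleen and marrow of the same mice were alike in most of these genes. Fam3c had a log2 difference of -3.70 ± 0.37 (SE) in spleen and Slamf6 of -2.66 ± 0.25, H2-Ab1 of -1.53 ± 0.18 and Rab3b of 1.18 ± 0.15. Only 2 genes passed the test of the difference between organs. Dpp4 was at 2.62 to 12.2 CPM in the YFP+ and 2.82 to 11.6 CPM in the YFP- spleen libraries, while YFP+ marrow had at most 1.42 CPM (difference of differences -4.30, adjusted p = 0.031). Itgam, the integrin alpha M of myeloid cells, had a log2 difference of -6.11 ± 0.61 (SE) in spleen and -1.73 ± 0.49 in marrow (adjusted p = 0.031). Tigit, with -2.41 ± 0.23 in spleen, and Spag6, with 2.76 ± 0.31, had larger values there, but the test of the difference did not pass (adjusted p = 0.479 and 0.431).

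Age separated 6 genes, all more negative in the 24-week mice: Dpp4, Ltb, Cd83, Fcmr, Hepacam2 of the HEPACAM family and the tetraspanin Cd9. Ltb was at 15.8 to 30.7 CPM in YFP+ and 6.96 to 54.6 CPM in YFP- marrow of young mice, against 0.114 to 1.64 CPM and 5.53 to 14 CPM in the 24-week mice (difference of differences -4.44, adjusted p = 0.00865). Fcmr was at 15.1 to 30.4 CPM in YFP+ and 20.2 to 106 CPM in YFP- young marrow, and its difference of differences was -3.46 (adjusted p = 0.0258). Cd83 stood at 22.9 to 72.2 CPM in YFP+ cells of young mice and 0 to 9.17 CPM in those of the 24-week mice (-3.74, adjusted p = 0.015). Without the mouse block no gene passed the test between ages or organs. Slamf6 (-2.38 ± 0.31, SE), Tigit (-3.26 ± 0.29), H2-Ab1 (-1.09 ± 0.22) and Fas (-1.15 ± 0.23) were lower in the YFP+ cells of young marrow too, and Rab3b was higher (0.86 ± 0.19, adjusted p = 0.0291). For Slamf6 and H2-Ab1 the difference between the ages was 0.69 ± 0.37 and -0.02 ± 0.27 (adjusted p = 0.87 and 1).

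**Figure D5:**
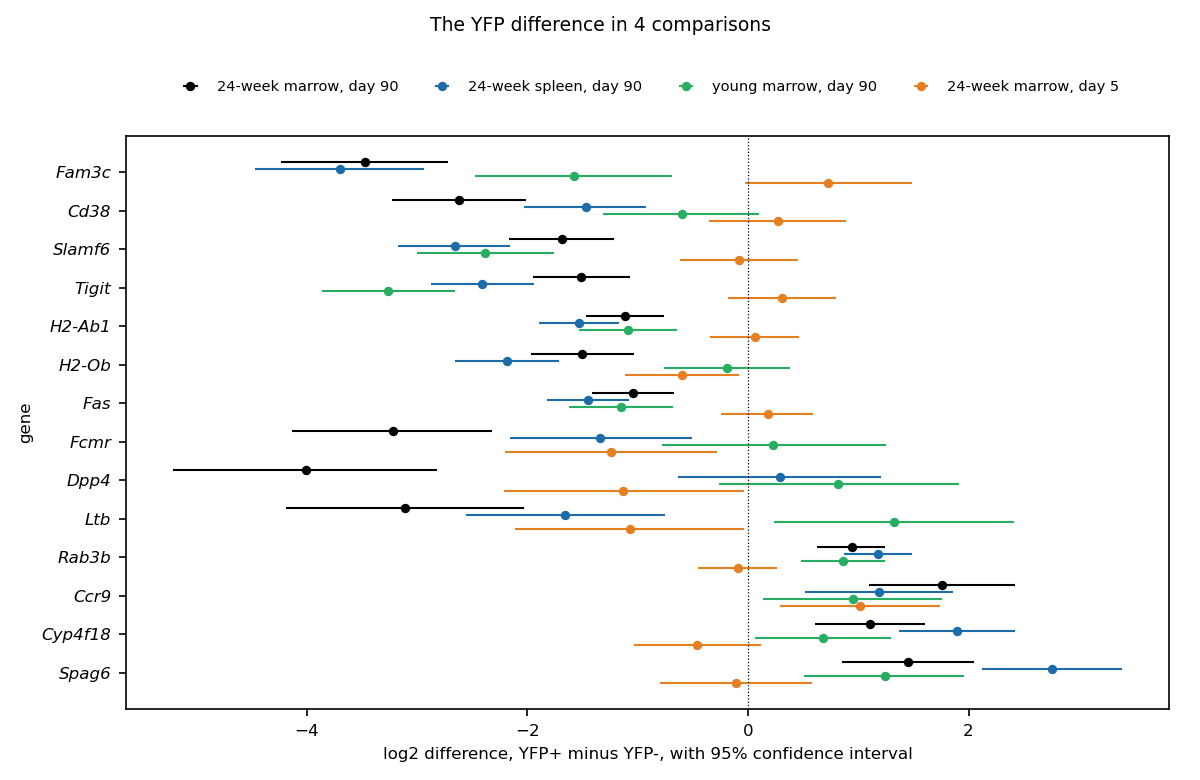
Log2 difference of YFP+ against YFP- plasma cells with its 95% confidence interval (x axis) for 14 genes (rows) in 24-week marrow at day 90 (black), 24-week spleen at day 90 (blue), young marrow at day 90 (green) and 24-week marrow at day 5 (orange). For Fam3c, Cd38, Slamf6 and Tigit the day-5 interval reaches or crosses 0 while the day-90 values of 24-week mice lie well below it, and Dpp4 is low in 24-week marrow at day 90 only among the day-90 comparisons drawn.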

How the data were processed

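Per the submitters' processing notes, STAR 2.6.1b, RSEM 1.3.1 and DESeq2 1.26.0 were used, with GRCm39 and GRCm38 builds named and no role given for either. The authors deposited expected counts per gene (54960 rows, immunoglobulin genes taken out, per the table's name); 3.1% were not whole and all were rounded. Library totals were 6643295 to 12663103. One day-5 library whose title contradicts its cell type label was left out. The other 43 libraries (12 groups, 13 mice) were fitted with edgeR 4.0.16 in R 4.3.3: filterByExpr (minimum count 10), TMM, robust quasi-likelihood, group and mouse as a block, common dispersion 0.117, Benjamini-Hochberg adjustment at 0.05. SE is the log2 difference divided by the root of F. The titles name the mouse, so both sorts come from 1 animal. Deviations from the group means correlated within mice at -0.181 (M2), 0.258 (M3), 0.336 (F15) and 0.0491 (F12) across 7696 genes. Between sorts of different mice they correlated at -0.366 to 0.273, so the block rests on the titles and not on these values. Replicates are separate mice. Alternatives used no block, fewer libraries or mice, other filters and scaling, DESeq2 1.42.0 and limma 3.58.1 voom. Named genes are up to 15 each way by p with at least 2-fold and 5 CPM, plus list members. The 33 gene lists and the genes on them were chosen with earlier results of these data known. The test was also run on simulated data with a mouse effect shared by both sorts and no outlying library. That run does not bear on the YFP- library of M2. Motifs were searched in RefSeq promoters (GRCm38.p6). Overlapping exons are from GENCODE M21.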

Additional observations from a re-analysis of the deposited data

Results flagged for a closer look

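Among 70 sets of 4 libraries examined for a single library far from the other 3, of which chance would flag about 1 in 20, 3 were singled out, all from mouse F15. Prss34 in YFP+ F15 was at 0.109 CPM and at 0 in the other 3 YFP+ libraries. Fcmr in YFP- F15 was at 94.9 CPM, and Dpp4 in YFP+ F15 at 1.42 CPM. For the genes that follow, the YFP difference itself differed between 2 sets of samples by the test of that difference (log2 values are differences of differences). Between marrow and spleen these were Dpp4 (-4.30) and Itgam (4.38). Between 24-week and young marrow they were Dpp4 (-4.84), Ltb (-4.44), Cd83 (-3.74), Fcmr (-3.46), Hepacam2 (-2.38) and Cd9 (-1.45). Between day 90 and day 5 they were Fam3c (-4.20), Nebl (-3.95), Cd38 (-2.89), Tigit (-1.82), Wnt10a (1.82) and the gene model Gm43292 (9.82), which was at 0 in all 3 YFP+ libraries of day 5, so that its fitted value is no measure of size. Between M2 with M3 and F12 with F15 it was Paxip1 (4.23).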

How the results depend on the processing

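The replicate block pairs the sorts by mouse. Without it 1 gene was higher and 14 lower in YFP+ marrow cells in place of 22 and 52, and 0 and 3 with the 8 marrow libraries alone. With the block, the 8 libraries alone gave 0 and 1, and the marrow libraries of all groups 7 and 19, of which 21 were among the 74. DESeq2's Wald test gave 88 and 145 (71 of the 74 kept), limma voom 13 and 42 (49 kept), no low-count filter 102 and 158 (68 kept), a stricter filter 23 and 57 (72 kept) and DESeq2 size factors 23 and 54 (74 kept). Leaving out 1 library or both libraries of 1 mouse gave 2 to 26 higher and 20 to 64 lower genes, with 20 lower without both libraries of M2 and 27 without those of M3; 18 of the 74 were called in all 12 such fits, of which Rab3b was the only higher one. M2 with M3 alone gave 167 and 215, F12 with F15 alone 0 and 5. Leaving out M3 and F15, a setting chosen after seeing the data, gave 6 and 33; Mcpt8 and Fcer1a had no counts left there and no value. No called gene with a value changed sign in these settings. Genes whose YFP difference differed numbered 2 between organs (0 without the block, 77 in DESeq2, 0 in voom), 6 between ages (0, 61 and 4) and 6 between days (2, 95 and 7). The causes of these shifts were not tested. No alternative was run for the test between the 2 pairs of mice. Genes near 0 in YFP+ cells are limited by depth: 3 counts over the 4 libraries correspond to 0.0892 CPM.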
